A study of Mus musculus with 40 samples.

Results

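T and NK cell genes were followed in B16F10 mouse melanoma, in cell cultures and in tumours grown in mice, with and without epigenetic drugs. The set was a fixed list of 32 gene symbols, chosen by name with earlier results of these data known. Each gene was read from the probe set that named it alone and had the highest mean over the 40 arrays. Of the 32 genes, 29 could be read in this way, out of 17097 genes measured on these arrays. Lck, a kinase of the T cell receptor, and Il2rg and Il7r, chains of cytokine receptors, had no probe set naming them alone and are not analysed here. The 29 genes fall by role into the T cell receptor complex (Cd3e, Cd3d, Cd3g, Cd247), coreceptors (Cd4, Cd8a, Cd8b1), adhesion and costimulation (Cd2, Cd5, Cd6, Cd27, Cd28) and proximal signalling (Zap70, Lat). The others are cytotoxic effectors with interferon gamma (Gzma, Gzmb, Prf1, Nkg7, Ctsw, Ifng), NK cell receptors (Klrd1, Klrk1, Klrb1c, Ncr1), transcription factors (Eomes, Tbx21, Foxp3) and chains of the interleukin 2 receptor (Il2ra, Il2rb).

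T cells recognise peptides on MHC molecules through a receptor whose CD3 and zeta chains carry the signal into the cell, with CD4 or CD8 as coreceptor. NK cells have no rearranged receptor and read activating and inhibitory surface receptors instead. Both cell types kill through granules that hold perforin and granzymes, and both release interferon gamma. In tumours their transcripts come mainly from infiltrating lymphocytes, which a cultured melanoma line does not contain.

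B16F10 is a cutaneous melanoma line of C57BL/6 origin, and every sample here derives from it. In culture, 4 samples were untreated and 4 received OTX015 in vitro. OTX015, also written OTX-015, inhibits BET proteins, whose bromodomains read acetylated histones. Tumours grew from B16F10 cells put under the skin of C57black6J mice aged 8 weeks. In the OTX015 experiment 11 tumours were controls and 10 came from mice given OTX015 by mouth. The guadecitabine experiment had 5 control tumours and 6 from mice that received guadecitabine, an inhibitor of DNA methylation, into the peritoneum. The labels describe the tumour samples as melanocyte cells from tumours and mention no sorting of cells. They give no dose, length of treatment or sex, and do not say whether replicates are separate animals or cultures, so p-values measure the spread between these samples, which may be technical in part. The question behind the design is how these drugs alter the surroundings of the melanoma, here read through lymphocyte genes.

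Values are RMA levels on the log2 scale, and a change is a difference of log2 group means with its standard error (SE). Genes were called at an adjusted p under 0.05, with limma and Benjamini-Hochberg adjustment over the 17097 genes. The array means of OTX015-treated tumours lay from 4.35 to 4.39, below the 4.55 to 4.64 of the other 30 arrays, so comparisons that involve these tumours were made after quantile normalization, which gives the fitted arrays 1 common distribution. Arrays of 1 group correlated across probe sets at r from 0.9395 to 0.9969. A low spread of values was found on 3 arrays: replicates 11 and 9 of the OTX015-experiment controls (SD 1.80 and 1.85) and replicate 4 of the OTX015-treated tumours (1.82), where the next array had 1.88. Melanocyte genes were high in every group, with array means of their 9 markers from 10.97 to 11.74, which matches the labelled cell type. The mean of 6 markers of all leukocytes (Ptprc, Coro1a, Laptm5, Cd52, Cd53, Cytip) lay from 3.83 to 4.14 on the 8 cultures and from 4.50 to 7.70 on the 32 tumours.

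Promoters are shown for the genes that rose by at least 0.5 in untreated tumours of the OTX015 experiment over untreated cells and were called higher in at least 1 other comparison of tumours with cells. By this rule 8 genes qualified (Cd2, Cd3e, Cd3g, Ctsw, Il2rb, Klrd1, Klrk1, Nkg7), and RefSeq promoters of the build GRCm38.p6 were at hand for 4 of them. Of the 29 genes, 21 matched an entry. Each sequence holds the 250 bases before the annotated start, 5′ to 3′ in the direction of the gene. Capitals mark a RUNX core (TGTGGT, or ACCACA on the other strand), an ETS core with flank (AGGAAG or CTTCCT) or a T-box core (AGGTGT or ACACCT), letters read by factor families known from T and NK cells. No searched motif overlaps another in the sequences shown.
Cd3e, chr9:45009612-45009861, minus strand: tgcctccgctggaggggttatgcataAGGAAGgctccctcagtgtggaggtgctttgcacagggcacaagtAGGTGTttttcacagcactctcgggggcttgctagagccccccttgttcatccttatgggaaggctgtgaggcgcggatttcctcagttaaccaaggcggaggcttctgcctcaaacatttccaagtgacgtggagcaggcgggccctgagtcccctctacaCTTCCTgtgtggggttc
Cd3g, chr9:44980432-44980681, minus strand: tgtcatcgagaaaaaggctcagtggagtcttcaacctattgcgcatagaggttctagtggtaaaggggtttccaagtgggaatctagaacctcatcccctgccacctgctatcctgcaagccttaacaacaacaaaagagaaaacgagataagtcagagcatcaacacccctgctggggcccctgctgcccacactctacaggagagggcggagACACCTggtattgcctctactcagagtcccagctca
Klrk1, chr6:129623865-129624114, minus strand: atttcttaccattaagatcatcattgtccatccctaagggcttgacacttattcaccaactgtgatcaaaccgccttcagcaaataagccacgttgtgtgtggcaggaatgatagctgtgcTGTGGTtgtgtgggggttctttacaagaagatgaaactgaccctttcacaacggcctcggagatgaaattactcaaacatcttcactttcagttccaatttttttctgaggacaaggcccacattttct
Nkg7, chr7:43436888-43437137, plus strand: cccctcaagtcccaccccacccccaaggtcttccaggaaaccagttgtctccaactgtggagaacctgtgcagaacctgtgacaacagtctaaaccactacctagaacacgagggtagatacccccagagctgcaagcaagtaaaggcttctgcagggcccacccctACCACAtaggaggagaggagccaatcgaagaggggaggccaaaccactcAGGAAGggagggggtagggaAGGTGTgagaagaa
The Cd3e promoter held 2 ETS and 1 T-box match, that of Cd3g 1 T-box match, that of Klrk1 1 RUNX match and that of Nkg7 1 match of each kind. Among 32851 promoters of the same length, 14% held the RUNX letters, 29.5% the ETS letters and 11.8% the T-box letters. These matches describe letters and are not evidence of binding.

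Few of these genes rose above the background of the arrays in any group. The background was set for each group as the 95th percentile of the group means of 81 probe sets for olfactory and vomeronasal receptors, genes that most tissues do not express, and lay from 4.35 to 4.70. Cd3e, the epsilon chain of CD3, and Klrk1, which encodes the activating receptor NKG2D, exceeded it in all 6 groups, cultures included, and on all 40 arrays against each array's own background. Ctsw, a cysteine protease of cytotoxic lymphocytes also called lymphopain, exceeded it in OTX015-treated tumours, on 10 of 10 arrays, and in no other group. The other 26 genes were at or below it in every group, among them Cd4, Cd8a, Prf1, Ifng and Foxp3. Thus 6.9% of the genes of the set lay above background in each group but the OTX015-treated tumours, where it was 10.3%, against 50.8 to 54.1% of all genes. Untreated cultures, which hold no lymphocytes, had means of 5.81 for Cd3e and 4.86 for Klrk1. For both genes a level above background therefore does not by itself mark lymphocyte transcripts. The source of these levels in cultures was not tested.

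**Figure D1:**
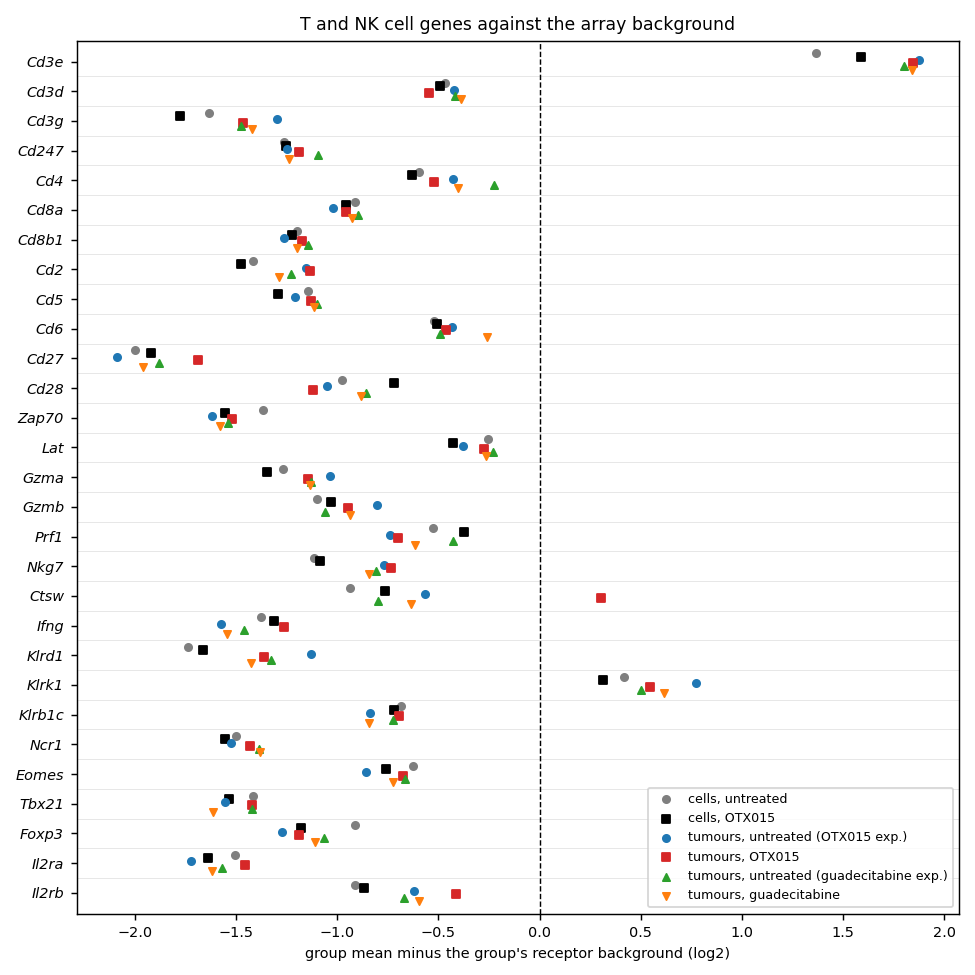
Group mean of each of the 29 T and NK cell genes minus the receptor background of the same group (log2), for 6 groups; the dashed line is the background. Cd3e and Klrk1 lie right of the line in all 6 groups and Ctsw in OTX015-treated tumours, while the other 26 genes lie left of it.

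How many genes pass depends on where the background is set. With the 90th percentile of the receptor probe sets 7 genes passed in at least 1 tumour group (Cd3d, Cd4, Cd6 and Lat in addition), and with the highest receptor probe set only Cd3e did. Markers of other cells were read the same way. Of 15 macrophage and monocyte markers, 1 lay above background in cultures and 12 in every tumour group. None of 6 B cell markers did in any group. Levels at or below background bound a transcript from above and leave its true amount unknown.

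In untreated tumours of the OTX015 experiment, 16 of the 29 genes were higher than in untreated cells and none was lower. They covered the whole T cell receptor complex (4 of 4), the NK cell receptors (3 of 4), the cytotoxic effectors with interferon gamma (4 of 6), adhesion and costimulation (3 of 5), 1 of 3 coreceptors and 1 of 2 receptor chains, and neither proximal signalling nor transcription factors. The background of this comparison is high: 49.7% of all genes were called, 20.5% higher. The median change of the set was 0.24, against 0.01 over all genes. The 76 receptor genes that serve as background moved as well. Of them 34 were called higher, beside 16 of the 29 genes of the set, and 2 lower, with a median of 0.20. Their changes ran from -1.88 to 0.93, and those of the whole set lay within this range. After quantile normalization 11 genes of the set were called higher and 1 lower (Foxp3), with 20 and 1 of the receptor genes. Cd3d, Cd247, Cd6, Cd27 and Ncr1, counted in the roles above, then lost their call. Whether the shift of the receptor genes has a part in the rises of the set was not tested.

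Cd3e, the signalling chain shared by all T cell receptors, had levels of 5.77, 5.91, 5.73 and 5.83 on the untreated cultures, and its lowest, median and highest levels on the 11 untreated tumours were 6.26, 6.43 and 7.13. Every tumour lay above every culture, and the change was 0.77 ± 0.15 (SE; adjusted p = 0.000597). Cd3g, the gamma chain, gave 2.65, 2.95, 2.67 and 2.98 on the cultures and 3.10, 3.31 and 3.87 (lowest, median, highest) on the tumours, a change of 0.59 ± 0.13 (SE; adjusted p = 0.0012). The groups of Cd3g did not overlap either. The delta chain gene Cd3d changed by 0.30 ± 0.11 (SE; adjusted p = 0.0257) and the zeta chain gene Cd247 by 0.27 ± 0.08 (SE; adjusted p = 0.0123), both with overlapping groups. Cd3d had 4.00, 3.62, 4.12 and 4.15 on cultures and 3.99, 4.27 and 4.53 on tumours, and Cd247 had 3.04, 3.18, 3.29 and 3.22 on cultures and 3.27, 3.41 and 3.74 on tumours. Quantile normalization took both below the threshold (0.23, adjusted p = 0.0783, and 0.16, adjusted p = 0.119), as did leaving out untreated culture replicate 1 (adjusted p = 0.0523 and 0.061), and for Cd3d untreated culture replicate 2 (adjusted p = 0.156). Of the 4 probe sets of Cd247, only the one used was called.

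The coreceptor gene Cd4, which macrophages of some species also transcribe, had 3.87, 3.78, 3.88 and 3.85 on the cultures and 4.00, 4.33 and 4.55 on the tumours, and rose by 0.43 ± 0.10 (SE; adjusted p = 0.00217) without overlap. Cd8a and Cd8b1, the chains of CD8, did not pass (0.15 and 0.20), although 1 of the other probe sets of Cd8a was called higher (0.23, adjusted p = 0.0375). Cd2, an adhesion receptor that binds CD48 in mice, measured 2.95, 2.96, 3.14 and 3.05 on cultures and 3.29, 3.42 and 4.20 on tumours, and was higher by 0.52 ± 0.15 (SE; adjusted p = 0.0107). All tumours lay above all cultures. The scavenger receptor family member Cd6 (cultures 3.75, 3.83, 4.06 and 4.05, tumours 3.87, 4.19 and 4.72) and the costimulatory receptor Cd27 (cultures 2.39, 2.55, 2.36 and 2.46, tumours 2.47, 2.60 and 2.85) changed by 0.35 ± 0.13 (SE; adjusted p = 0.0402) and 0.17 ± 0.07 (SE; adjusted p = 0.0497). These calls were weak: of the 15 fits that left out 1 array, 10 kept that of Cd6 and 4 that of Cd27, with adjusted p up to 0.134 and 0.142, and quantile normalization ended both.

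Among the effectors, the granzyme A gene Gzma had 3.22, 3.10, 3.10 and 3.27 on cultures and 3.34, 3.58 and 4.19 on tumours, a change of 0.50 ± 0.13 (SE; adjusted p = 0.0064), with no overlap. Gzmb, the gene of granzyme B, had 3.36, 3.21, 3.61 and 3.21 on cultures and 3.57, 3.76 and 4.69 on tumours, a change of 0.56 ± 0.17 (SE; adjusted p = 0.0136), and here the groups overlapped. For Nkg7, a membrane protein of cytotoxic granules, the cultures gave 3.41, 3.31, 3.39 and 3.21 and the tumours 3.65, 3.74 and 4.58, a change of 0.61 ± 0.16 (SE; adjusted p = 0.00508). Ctsw had 3.57, 3.40, 3.46 and 3.59 on cultures and 3.79, 4.08 and 4.67 on tumours, and was higher by 0.63 ± 0.14 (SE; adjusted p = 0.00164). Neither Nkg7 nor Ctsw overlapped between cultures and tumours. The perforin gene Prf1 and the interferon gamma gene Ifng, by contrast, changed by 0.05 ± 0.08 and 0.07 ± 0.07 and did not pass.

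The NK cell receptor gene Klrd1, which encodes CD94, showed a change of 0.87 ± 0.17 (SE; adjusted p = 0.000617). Its levels were 2.70, 2.73, 2.79 and 2.60 on cultures and 3.24, 3.46 and 4.21 on tumours, without overlap. Klrk1 gave 4.82, 4.81, 4.98 and 4.82 on cultures and 5.06, 5.47 and 5.97 on tumours, again without overlap, and a change of 0.62 ± 0.13 (SE; adjusted p = 0.000887). Ncr1, the gene of the NK receptor NKp46, gave 2.93, 2.90, 2.94 and 3.01 on cultures and 2.86, 3.23 and 3.39 on tumours, and its 0.24 ± 0.10 (SE; adjusted p = 0.0498) was kept in 4 of 15 fits that left out 1 array and lost after quantile normalization (0.13, adjusted p = 0.175). Il2rb, a receptor chain for interleukins 2 and 15, had 3.49, 3.57, 3.54 and 3.53 on cultures and 3.75, 4.14 and 4.50 on tumours, did not overlap, and changed by 0.55 ± 0.12 (SE; adjusted p = 0.00171), with all 3 of its probe sets called. In all, 10 of the 29 genes had every untreated tumour above every culture (Cd3e, Cd3g, Cd4, Cd2, Gzma, Nkg7, Ctsw, Klrd1, Klrk1, Il2rb), which held for 10.2% of all genes, and none had the reverse, which held for 20.1%. All of these genes but Cd4 kept their call under every alternative in which they were tested, and all 10 kept it in the 15 fits without 1 array.

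**Figure D2:**
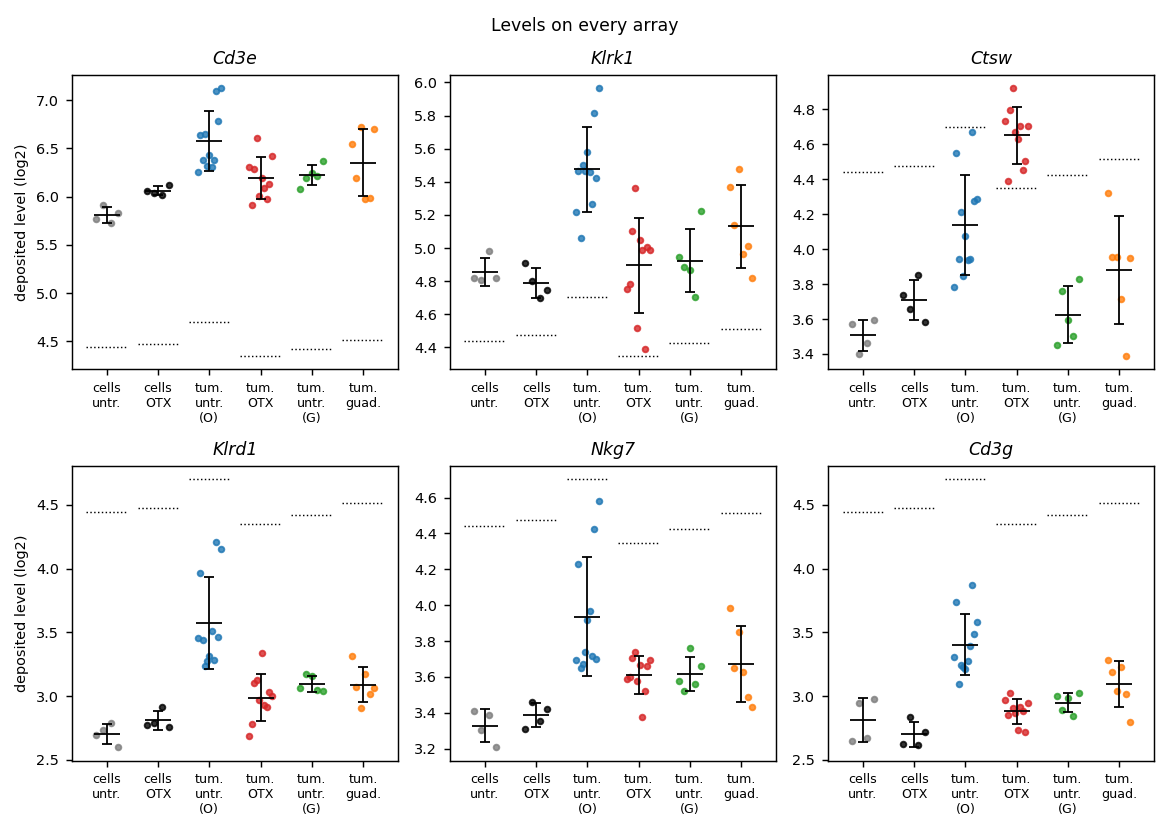
Deposited level (log2) of 6 genes on each of the 40 arrays, by group; points are arrays, the black mark is the group mean with its SD, and the dotted line is the receptor background of the group (O and G mark the controls of the OTX015 and guadecitabine experiments). Cd3e and Klrk1 lie above the dotted lines in every group, Ctsw crosses its line as a group in OTX015-treated tumours only, and Klrd1, Nkg7 and Cd3g stay below theirs as groups.

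Other leukocyte markers moved in the same comparison, and by more. All 15 macrophage and monocyte markers were called higher with a median change of 2.90, and Lyz2, which encodes a lysozyme of myeloid cells, rose by 6.45 ± 0.26. Ptprc, the gene of CD45 on all leukocytes, rose by 3.65 ± 0.37 (SE; adjusted p = 1.12e-06), and 5 of the 6 leukocyte markers were called, with a median of 3.04. Of the B cell markers 1 of 6 was called. In bulk samples such as these, more cells of a type and more RNA per cell cannot be told apart. The mean of erythroid markers ran from 4.43 to 4.54 on untreated cultures and from 7.79 to 9.96 on these tumours. The part of other leukocytes, or of blood in the samples, in the rises of the set was not tested.

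**Figure D3:**
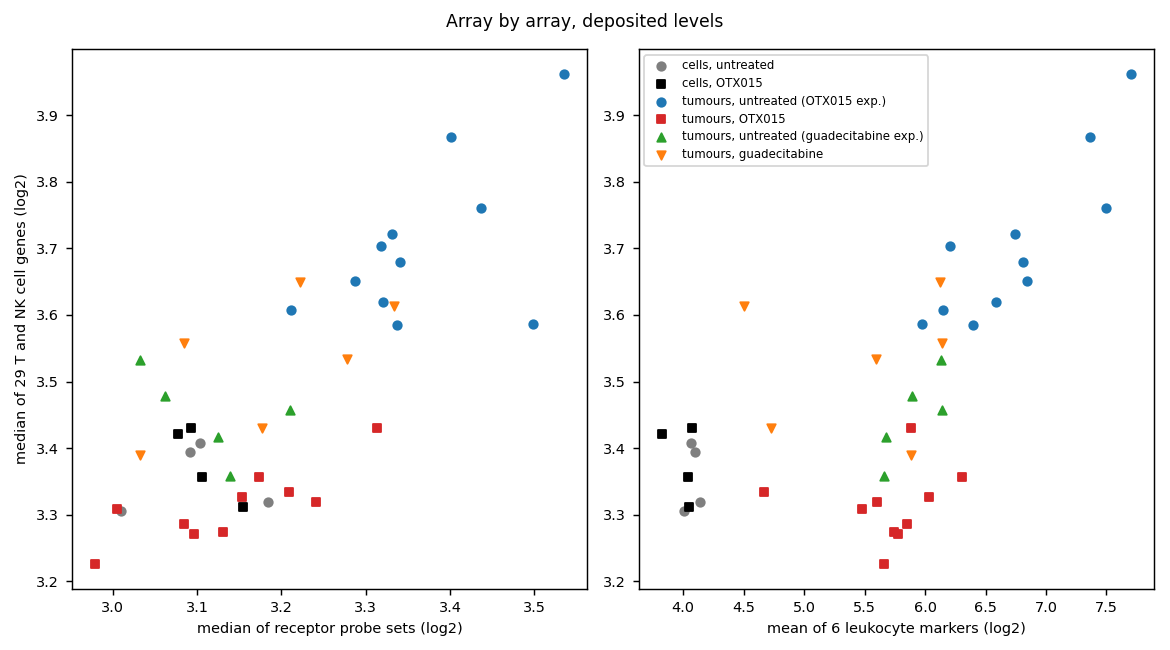
Each point is 1 of the 40 arrays (deposited log2 levels): the median of the 29 T and NK cell genes against the median of the receptor probe sets (left) and against the mean of 6 leukocyte markers (right). The highest arrays for all 3 quantities are untreated tumours of the OTX015 experiment, and cultures hold the lowest leukocyte means (3.83 to 4.14).

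The median over the 29 genes differed between groups together with that of the receptor probe sets. It ran from 3.31 to 3.41 on untreated cultures and from 3.59 to 3.96 on untreated tumours of the OTX015 experiment, while the median of the receptor probe sets ran from 3.01 to 3.18 and from 3.21 to 3.54. Replicates 11, 2 and 9 of these tumours were the highest for the set and had leukocyte means of 7.70, 7.36 and 7.49, above the other 8 tumours. Of these arrays, 11 and 9 are among those of low spread. Leaving out the low-spread arrays, an alternative added after the data had been seen, gave 14 genes higher in place of 16.

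In the guadecitabine experiment, untreated tumours were higher than untreated cells for 5 of the 29 genes: Cd3e, Klrd1, Cd4, Nkg7 and Il2rb. None was lower. Over all genes 38.1% were called, 9.91% higher, and the receptor genes gave 2 higher and 2 lower with a median of 0.00. Single receptor genes changed by -1.58 to 0.50, which covers the changes of the whole set. This comparison uses the same 4 cultures as the one with the OTX015-experiment controls, so agreement between them is not independent. The set's median change was 0.07, against -0.07 over all genes. The split of calls moved with the scaling: centring each array on its median gave 3 higher and 3 lower and moved the median of all genes from -0.07 to -0.17, and quantile normalization gave 4 higher and 1 lower.

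Cd3e measured 6.08, 6.20, 6.25, 6.22 and 6.37 on these 5 tumours, a change of 0.41 ± 0.08 (SE; adjusted p = 0.00124). Klrd1 measured 3.06, 3.17, 3.15, 3.05 and 3.04 and changed by 0.39 ± 0.07 (SE; adjusted p = 0.00085), and Cd4 measured 4.00, 4.14, 4.40, 4.22 and 4.25 and changed by 0.36 ± 0.08 (SE; adjusted p = 0.0055). These 3 genes kept their call under every alternative in which they were tested and with each array left out. Nkg7 had 3.58, 3.52, 3.76, 3.56 and 3.66, a change of 0.29 ± 0.08 (SE; adjusted p = 0.0107) that median centring ended (0.18, adjusted p = 0.0713), as did a fit of all 6 groups (0.29, adjusted p = 0.111). Il2rb had 3.73, 3.72, 3.67, 3.85 and 3.81 and a change of 0.22 ± 0.07 (SE; adjusted p = 0.0194), which was lost under 5 of 9 alternatives and without untreated culture replicate 1 (0.21, adjusted p = 0.0585), and its other 2 probe sets were not called (0.21, adjusted p = 0.14, and -0.031). The other probe set of Cd4 gave 0.09 and was not called. For all 5 genes the tumours lay wholly above the cultures, as they did for 8.03% of all genes, and for no gene wholly below them, as for 25.1%. Klrk1 measured 4.94, 4.89, 4.87, 4.70 and 5.22 on these tumours and Ctsw 3.45, 3.76, 3.59, 3.50 and 3.83, and neither passed (0.07 and 0.12). Ptprc rose by 2.43 ± 0.23 (SE; adjusted p = 1.11e-05), and 14 of the 15 macrophage markers were called, with a median change of 1.89.

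OTX015-treated tumours were compared with OTX015-treated cells, which share no array with either comparison above. Here 11 genes of the set were higher and 2 lower, where 56.3% of all genes were called, 31.3% higher and 25.0% lower. The median change of the set was 0.10, against 0.04 over all genes and 0.12 over the receptor genes, of which 28 were called higher and 5 lower. The receptor genes ran from -1.83 to 0.90, and of the set only Ctsw lay outside this range. On the deposited values, where the median of all genes was -0.16, 4 genes were higher and 2 lower. Both groups had been given the drug, so the comparison says nothing of its effect.

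The largest rise of the set was that of Ctsw, with 3.64, 3.55, 3.75 and 3.50 on the cultures and 4.47, 4.77 and 5.12 on the tumours after quantile normalization, a change of 1.15 ± 0.10 (SE; adjusted p = 5.91e-08). Cd3e had 5.72, 5.69, 5.64 and 5.72 on cultures and 5.89, 6.29 and 7.08 on tumours, a change of 0.68 ± 0.16 (SE; adjusted p = 0.00215), which fell short on the deposited values (0.13, adjusted p = 0.3). Il2rb (3.39, 3.44, 3.66 and 3.55 against 3.67, 4.00 and 4.19) changed by 0.48 ± 0.08 (SE; adjusted p = 9.37e-05), with its other 2 probe sets at 0.16 and 0.08 and not called, and Nkg7 (3.22, 3.36, 3.28 and 3.35 against 3.43, 3.69 and 3.72) by 0.35 ± 0.06 (SE; adjusted p = 8.82e-05). In these 4 genes and in Cd3g every tumour lay above every culture, against 19.4% of all genes. Cd3g had 2.55, 2.76, 2.55 and 2.66 on cultures and 2.76, 2.95 and 3.01 on tumours, a change of 0.28 ± 0.06 (SE; adjusted p = 0.000949). With overlapping groups, Klrk1 changed by 0.44 ± 0.16 (SE; adjusted p = 0.0284), Cd2 by 0.32 ± 0.08 (SE; adjusted p = 0.00286) and Klrd1 by 0.28 ± 0.09 (SE; adjusted p = 0.0125). Cd27 (0.20), Lat (0.20), an adaptor below the T cell receptor, and Gzma (0.19) were called with smaller changes, and Lat and Gzma lost the call without any 1 of 3 and 5 of the 14 arrays. On the deposited values Cd2, Cd27, Klrd1, Klrk1, Lat and Gzma did not pass, nor did Klrk1 without OTX015-treated culture replicate 2, 3 or 4 (adjusted p up to 0.0765).

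Prf1 and Cd28 were the 2 genes lower in OTX015-treated tumours than in OTX015-treated cells. Prf1, the pore-forming protein of cytotoxic granules, had 4.06, 3.89, 3.94 and 4.02 on cultures and 3.49, 3.69 and 3.83 on tumours, a change of -0.29 ± 0.07 (SE; adjusted p = 0.00172), and every tumour lay below every culture, as for 17.1% of all genes. Both groups lay below the array background for Prf1, and its other probe set gave -0.042 (adjusted p = 0.645). Cd28, the main costimulatory receptor of T cells, had 3.47, 3.64, 3.85 and 3.66 on cultures and 2.95, 3.26 and 3.50 on tumours, and changed by -0.39 ± 0.09 (SE; adjusted p = 0.00223). The other probe set of Cd28 gave 0.08 and was not called. The probe sets of Cd8a disagreed too: the one used gave 0.00, and both others were called higher, at 0.26 and 0.32. Ptprc rose by 2.04 ± 0.40 (SE; adjusted p = 0.000391), and 13 of the 15 macrophage markers were called higher.

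Called higher both in untreated tumours of the guadecitabine experiment and in OTX015-treated tumours, over their cultures, were Cd3e, Il2rb, Klrd1 and Nkg7. These are 4 of the 29 genes, where the comparisons singly called 5 and 11 higher. Of all 17097 genes, 903 (5.28%) were called higher in both, and 1695 and 5351 singly. By the probe set used, 10 genes were called in none of the 3 comparisons of tumours with cells, as was the case for 23.7% of all genes: Cd5, Cd8a, Cd8b1, Zap70, Ifng, Klrb1c, Eomes, Tbx21, Foxp3 and Il2ra. They include the CD8 chains, the regulatory T cell factor Foxp3 and the T-box factors of effector lymphocytes. Apart from Foxp3 and Ifng, the deposited group means of these genes ran from 2.83 (Zap70) to 3.87 (Klrb1c) over the 6 groups.

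**Figure D4:**
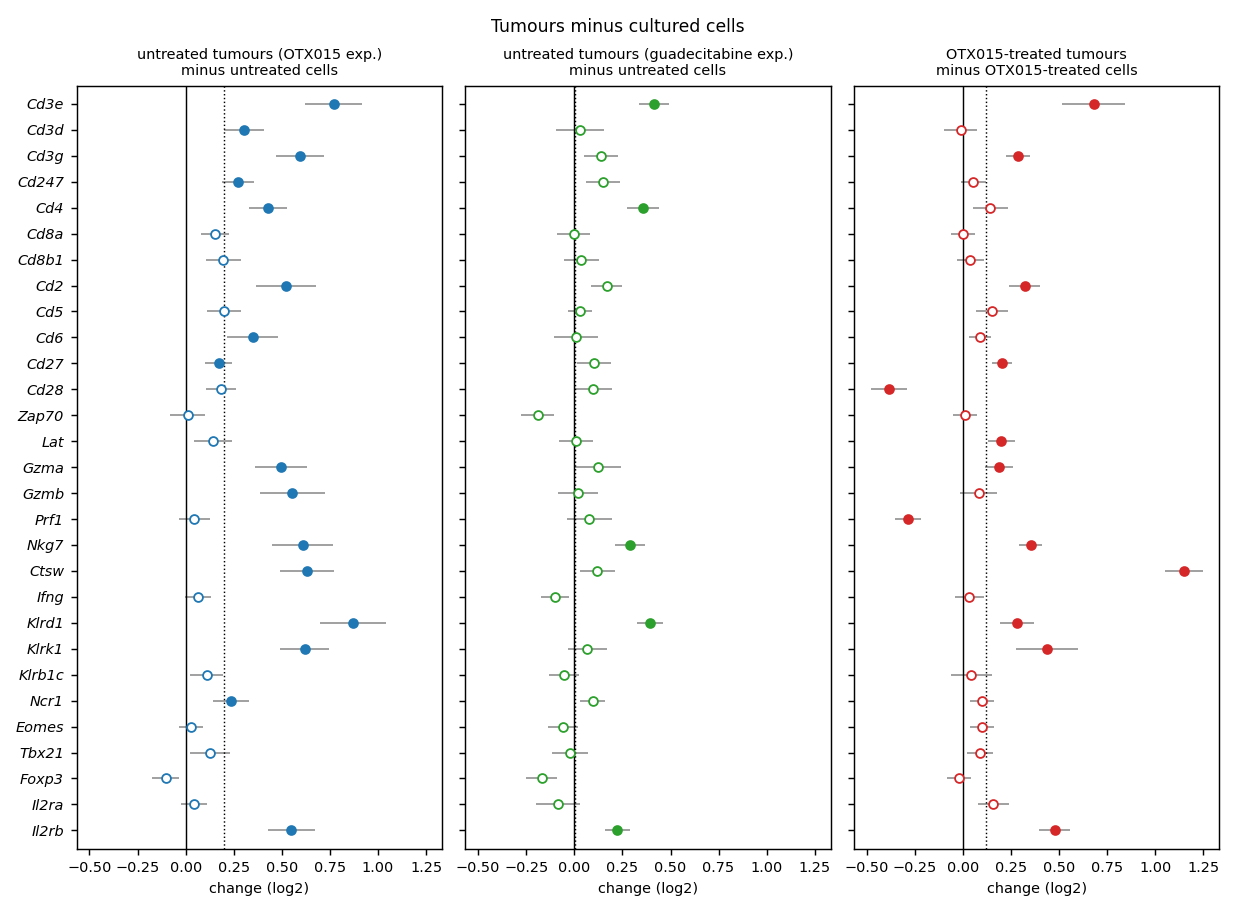
Change (log2, ± SE) of each gene between tumours and cultures in 3 comparisons; filled points were called at an adjusted p under 0.05, and the dotted line is the median change of the receptor genes. Cd3e, Klrd1, Nkg7 and Il2rb are filled in the middle and right panels, which share no array, and Ctsw has the largest change in the panel on the right.

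With OTX015, 3 of the 29 genes were higher in tumours and 5 lower. Ctsw, Cd27 and Ifng were higher in treated than in control tumours, and Klrd1, Cd3g, Gzma, Cd3d and Cd28 were lower. By role, 2 of 4 genes of the T cell receptor complex, 1 of 4 NK cell receptors, 1 of 6 effectors and 1 of 5 adhesion and costimulation genes fell, and 2 effectors and 1 costimulation gene rose. Over all genes 16.2% were called, 8.67% higher and 7.49% lower. The median change of the set was -0.06, against 0.01 over all genes, and the receptor genes gave 6 higher and 5 lower. Changes of single receptor genes ran from -0.37 to 0.68, a range that holds every gene of the set but Ctsw. On the deposited values, where the median of all genes was -0.21, 1 gene of the set was higher and 24 lower, and 2 and 49 of the 76 receptor genes. Apart from Ctsw, no gene of the set changed by 0.5 or more.

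Ctsw had the clearest change. After quantile normalization its lowest, median and highest levels were 3.74, 3.98 and 4.55 on the 11 control tumours and 4.53, 4.82 and 5.14 on the 10 treated tumours, with means of 4.03 ± 0.26 and 4.80 ± 0.18 (SD). Of the 10 treated tumours 9 lay above every control, and the change was 0.78 ± 0.09 (SE; adjusted p = 6.05e-06). The control mean lay below the background of its group on this scale (4.61), so the size of the change is counted from a level not above background. On the deposited values, too, the lowest, median and highest were 3.79, 4.08 and 4.67 in controls and 4.39, 4.69 and 4.92 in treated tumours, although the arrays of treated tumours lie lower as a whole. The call held under all 10 alternatives in which Ctsw was tested and in all 21 fits that left out 1 array, with changes from 0.74 to 0.83. Dropping dim genes left Ctsw untested. It has 1 probe set, so other summaries of probe sets could not alter its change, and a looser threshold could not end its call. Fibp, whose gene overlaps the end of Ctsw and which was looked up after these values had been seen, changed by 0.34 ± 0.13 (SE; adjusted p = 0.0898).

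Cd27 gave 2.44, 2.53 and 2.67 on controls and 2.63, 2.77 and 2.82 on treated tumours. Of the treated tumours 9 lay above every control, and the change was 0.22 ± 0.04 (SE; adjusted p = 0.000473). Its levels lay below background in both groups, and on the deposited values the change was 0.05 (adjusted p = 0.408). Ifng gave 2.92, 3.04 and 3.15 on controls and 3.02, 3.18 and 3.41 on treated tumours, with a change of 0.16 ± 0.05 (SE; adjusted p = 0.031). That call was lost without treated replicate 3, 4 or 7 (adjusted p up to 0.0599) and without the low-spread arrays, and its direction turned on the deposited values (-0.042, adjusted p = 0.55).

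Cd3g gave 3.05, 3.28 and 3.69 on controls and 2.83, 3.02 and 3.09 on treated tumours, and 8 of 10 treated tumours lay below every control. It fell by 0.31 ± 0.07 (SE; adjusted p = 0.00319). This call held under all 10 alternatives in which Cd3g was tested and in all 21 fits without 1 array (-0.34 to -0.27). The limits of these alternatives given for Ctsw apply here too, since Cd3g has 1 probe set and was dropped with the dim genes. Cd3d gave 3.86, 4.14 and 4.41 on controls and 3.65, 3.91 and 4.22 on treated tumours, a change of -0.22 ± 0.07 (SE; adjusted p = 0.032) that 14 of the 21 fits kept and that was lost without the low-spread arrays (-0.18, adjusted p = 0.0803). Their neighbour in the complex, Cd3e, gave 5.97, 6.32 and 7.44 on controls and 5.86, 6.25 and 7.03 on treated tumours, with a change of -0.17 ± 0.18 (SE; adjusted p = 0.583) and wide overlap. Cd247 did not pass either (-0.07).

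Klrd1 gave 3.12, 3.39 and 4.04 on controls and 2.77, 3.10 and 3.46 on treated tumours. In 6 of the 10 treated tumours it lay below every control, and the change of -0.37 ± 0.11 (SE; adjusted p = 0.0192) held in all 21 fits without 1 array. Klrk1, which lies above background, gave 4.90, 5.33 and 6.18 on controls and 4.56, 5.11 and 5.66 on treated tumours: 9 of 10 treated tumours lay below the control mean, and the change was -0.34 ± 0.14 (SE; adjusted p = 0.108). Gzma gave 3.30, 3.45 and 3.96 on controls and 3.21, 3.32 and 3.58 on treated tumours and changed by -0.24 ± 0.08 (SE; adjusted p = 0.0389). Cd28 gave 3.36, 3.53 and 3.77 on controls and 3.02, 3.35 and 3.58 on treated tumours and changed by -0.19 ± 0.06 (SE; adjusted p = 0.0444), while its other probe set gave -0.07. The calls of Gzma and Cd28 were kept in 11 and 8 of the 21 fits, with adjusted p up to 0.0683 and 0.0831. Gzmb (-0.26, adjusted p = 0.118) and Cd4 (-0.19, adjusted p = 0.0732) did not pass. No gene of the set separated the groups fully, as 0.825% of all genes did upwards and 0.55% downwards.

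Markers of all leukocytes and of macrophages and monocytes were mostly lower in the same treated tumours. Ptprc changed by -1.33 ± 0.34 (SE; adjusted p = 0.0102), the macrophage marker Adgre1 by -0.91 ± 0.22 (SE; adjusted p = 0.00635), and 9 of 15 macrophage and monocyte markers were called lower, none higher, with a median of -0.91. Of the 6 leukocyte markers 5 were lower and 1 higher. After quantile normalization the leukocyte mean ran from 5.89 to 7.89 on controls and from 4.83 to 6.39 on treated tumours. The mean of neutrophil and mast cell markers had a median of 4.65 on controls and 4.73 on treated tumours. That of dendritic cell markers had 4.24 and 4.29. The part of the lower leukocyte and macrophage levels in the falls of the set was not tested. Hexim1, a gene that commonly rises with BET inhibition, changed by 0.12 ± 0.09 (SE; adjusted p = 0.378) in tumours.

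Across tumours of 1 group, the genes above background were set against Ptprc (deposited levels, 5 relations, permutation tests, two-sided). Over the 11 control tumours Cd3e gave Pearson's r = 0.625 (permutation p = 0.0397, adjusted p = 0.199) and Spearman's rho = 0.391 (permutation p = 0.237, adjusted p = 0.593), and r = 0.719 without the 2 arrays farthest from the median of Ptprc. Klrk1 gave r = 0.498 (permutation p = 0.117, adjusted p = 0.291) and rho = 0.164 (permutation p = 0.63, adjusted p = 0.758), and r = 0.434 without such arrays. Over the 10 treated tumours Cd3e gave r = -0.112 (permutation p = 0.772, adjusted p = 0.899) and rho = 0.115 (permutation p = 0.758, adjusted p = 0.758), and r = 0.223 without 2 arrays. Ctsw gave r = -0.044 (permutation p = 0.899, adjusted p = 0.899) and rho = 0.236 (permutation p = 0.511, adjusted p = 0.758), and r = 0.588 without 2 arrays. On the same tumours Klrk1 gave r = 0.331 (permutation p = 0.363, adjusted p = 0.605) and rho = 0.648 (permutation p = 0.0501, adjusted p = 0.251), and r = 0.504 without 2 arrays. No relation passed after adjustment. All genes had a median r with Ptprc of -0.016 over the controls and 0.039 over the treated tumours.

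Guadecitabine changed no gene of the set at the threshold: 0 of 29 were called by limma, as were 0.0% of all genes, and 1 was higher and none lower at an unadjusted p under 0.05. That gene was Cd6, with 3.90, 3.68, 3.89, 3.95 and 4.25 on the 5 controls and 3.91, 4.22 and 4.66 (lowest, median, highest) on the 6 treated tumours, a change of 0.32 ± 0.13 (SE; adjusted p = 0.808). Changes over the 29 genes ran from -0.10 to 0.32 with a median of 0.05, against 0.04 over all genes, and 23 were above 0. Cd3e gave 6.08, 6.20, 6.25, 6.22 and 6.37 on controls and 5.98, 6.37 and 6.72 on treated tumours, and its spread was wider after treatment (SD 0.34 against 0.10). Klrk1 gave 4.82, 5.08 and 5.48 and Klrd1 2.91, 3.07 and 3.32 on treated tumours, both overlapping their controls. For Ctsw the change was 0.25 ± 0.15 (SE; adjusted p = 0.839), and 2 SE on either side of it reach from -0.04 to 0.55. None of the 15 macrophage markers was called (median -0.34). No gene of the set had groups that did not overlap (0.521% of all genes upwards and 0.129% downwards).

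In cultured cells, which hold no lymphocytes, OTX015 changed 3 of 29 genes, against 38.8% of all genes (17.0% higher, 21.8% lower). Receptor genes changed by -0.27 to 0.38, and all changes of the set lay within this range. Cd3e had 5.77, 5.91, 5.73 and 5.83 on untreated and 6.06, 6.04, 6.02 and 6.12 on treated cultures. All treated cultures lay above all untreated ones, and the change was 0.25 ± 0.07 (SE; adjusted p = 0.01), which held without any 1 array but not in a fit of all 6 groups (adjusted p = 0.342). Cd28 had 3.54, 3.47, 3.39 and 3.48 on untreated and 3.56, 3.75, 3.96 and 3.74 on treated cultures, also without overlap, and a change of 0.29 ± 0.09 (SE; adjusted p = 0.019). Without treated replicate 3 it fell short (0.22, adjusted p = 0.061), and its other probe set gave 0.03. Foxp3 had 3.72, 3.40, 3.48 and 3.52 on untreated and 3.25, 3.34, 3.34 and 3.25 on treated cultures and fell by 0.24 ± 0.08 (SE; adjusted p = 0.0322), a call kept in 3 of 8 fits without 1 array. Full separation was found for 2 genes upwards (Cd3e, Cd28) and 2 downwards (Foxp3, Lat), against 16.7% and 21.1% of all genes. Lat had 4.19, 4.15, 4.21 and 4.19 on untreated and 3.97, 4.13, 4.04 and 4.06 on treated cultures, and its change of -0.14 ± 0.06 (SE; adjusted p = 0.125) did not pass. Cd28 and Foxp3 lay below background in both groups. Hexim1 rose by 2.25 ± 0.10 (SE; adjusted p = 4.67e-09) in these cells.

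The effects of the drugs in tumours were then compared directly, as the OTX015 effect minus the guadecitabine effect over all 4 tumour groups. Only Cd3g passed, at -0.44 ± 0.12 (SE; adjusted p = 0.0319), where 3.54% of all genes were called, 1.39% higher and 2.15% lower. The receptor genes ran from -0.53 to 0.64, with 3 called higher and 2 lower. Under guadecitabine Cd3g gave 2.996, 2.89, 2.99, 2.84 and 3.02 on controls and 2.80, 3.12 and 3.28 on treated tumours, a change of 0.15 ± 0.09 that did not pass. The call on the difference was lost with median centring (-0.42, adjusted p = 0.0532) and without any 1 of 6 arrays of the guadecitabine experiment (adjusted p up to 0.0676): control replicates 2, 3 and 4 and treated replicates 1, 2 and 4. For Ctsw the difference was 0.55 ± 0.17 (SE; adjusted p = 0.0588). The set gave 0 higher and 1 lower, or 1 higher and 0 lower with median centring, and on the deposited values the median of all genes moved from -0.04 to -0.25. The experiments had controls of their own, and drug and experiment cannot be told apart in the levels of treated tumours.

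**Figure D5:**
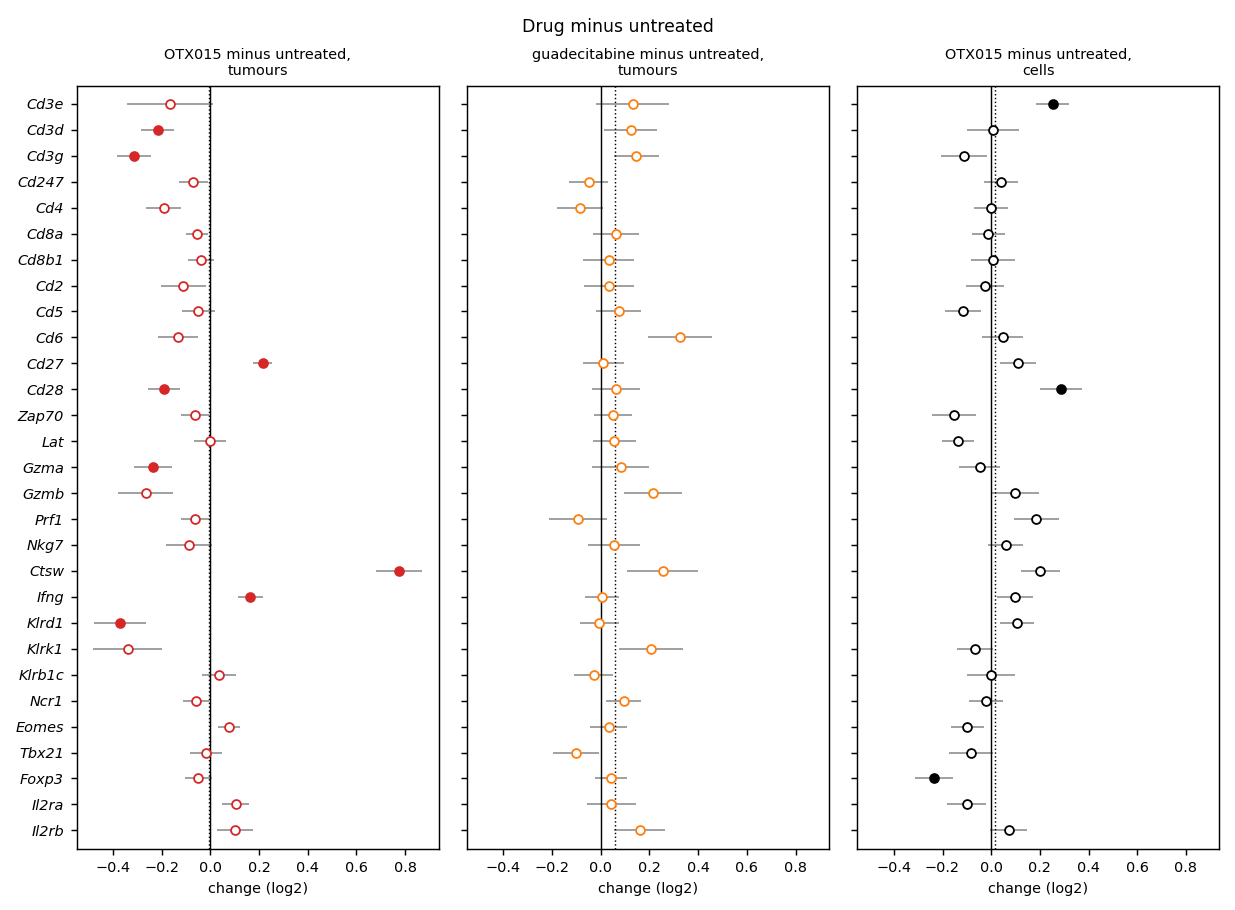
Change (log2, ± SE) of each gene with drug in 3 comparisons, OTX015 in tumours, guadecitabine in tumours and OTX015 in cells; filled points were called at an adjusted p under 0.05, and the dotted line is the median change of the receptor genes. Ctsw (0.78) stands apart in the left panel, no point is filled in the middle panel, and 3 are filled on the right.

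Other genes of the same pathways were counted in the same fits, from lists of names also chosen with earlier results known. In untreated tumours of the OTX015 experiment over cells, 9 of 19 antigen receptor signalling genes were higher and 2 lower, the latter being the kinase genes Prkcq -1.54 (adjusted p = 5.26e-08) and Fyn -1.03 (adjusted p = 7.18e-07). Of 18 T cell identity and homing genes 11 were higher, led by the chemokine receptor gene Cxcr3 0.98 (adjusted p = 2.55e-07) and the egress receptor gene S1pr1 0.78 (adjusted p = 7.55e-05). Of 20 NK cell and cytotoxic genes 9 were higher, among them the granule proteoglycan gene Srgn 5.40 (adjusted p = 2.4e-09), which myeloid cells also transcribe, and 1 lower, the granzyme B inhibitor gene Serpinb9 -0.43 (adjusted p = 0.00144). Of 21 cytokine and receptor genes 9 were higher and 2 lower, with Il12rb2 0.40 (adjusted p = 0.00096) and Stat5a 0.39 (adjusted p = 0.00253) leading. In untreated guadecitabine-experiment tumours, the counts higher and lower were 3 and 3, 3 and 1, 1 and 2, and 1 and 2 in the same order. There Cxcr3 changed by 0.59 (adjusted p = 0.001), Gata3 by -0.31 (adjusted p = 0.0084), Srgn by 4.20 (adjusted p = 4.48e-08), Serpinb9 by -0.77 (adjusted p = 0.000133), Jak1 by -0.88 (adjusted p = 0.000443) and Il15 by -0.44 (adjusted p = 0.00242). Prkcq and Fyn led the signalling list again, both lower, at -1.64 (adjusted p = 3.18e-07) and -1.21 (adjusted p = 3.59e-05).

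In OTX015-treated tumours over OTX015-treated cells the counts were 6 higher and 2 lower for antigen receptor signalling, 10 and 0 for identity and homing, 8 and 0 for NK cell and cytotoxic genes, and 10 and 5 for cytokines and receptors. Leading genes were Fyn -1.40 (adjusted p = 9.81e-08), the adaptor gene Fyb 1.36 (adjusted p = 1.52e-07), Cxcr3 1.12 (adjusted p = 5.29e-08), Cd44 0.73 (adjusted p = 2.82e-07), Srgn 4.63 (adjusted p = 2.51e-08), the chemokine gene Ccl5 1.06 (adjusted p = 8.76e-06), Jak1 -1.38 (adjusted p = 2.01e-09) and Il18 1.04 (adjusted p = 1.82e-08). Jak1 is transcribed in most cell types, melanoma included, and Srgn and Il18 in myeloid cells.

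With OTX015 in tumours, the other genes moved both ways. Antigen receptor signalling had 2 higher and 2 lower of 19, with Rasgrp1 -0.32 (adjusted p = 0.00411) and Vav1 -0.35 (adjusted p = 0.0151) leading. Identity and homing had 1 higher and 2 lower of 18, led by Crtam -0.16 (adjusted p = 0.0175) and the early activation gene Cd69 -0.34 (adjusted p = 0.0235). Of the NK cell and cytotoxic genes 1 of 20 was higher, the granzyme gene Gzmk 0.27 (adjusted p = 0.00504), and 1 lower, Ccl5 -0.55 (adjusted p = 0.0337). The cytokines and receptors gave 2 higher and 5 lower of 21, led by the interleukin 21 receptor gene Il21r 0.31 (adjusted p = 0.00121) and the interleukin 18 receptor gene Il18r1 -0.28 (adjusted p = 0.00349). Guadecitabine called none in any of these lists.

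In cells, OTX015 gave 4 higher and 3 lower antigen receptor signalling genes, led by Fyb -1.80 (adjusted p = 7.29e-08) and Prkcq -1.63 (adjusted p = 6.18e-08). Identity and homing had 1 lower, Itgae -0.44 (adjusted p = 0.0129). The NK cell and cytotoxic list had 2 lower, Ccl5 -1.59 (adjusted p = 2.38e-07) and Serpinb9 -1.03 (adjusted p = 2.47e-06). Of the cytokines and receptors 2 were higher and 5 lower, led by Jak1 1.14 (adjusted p = 8.04e-07) and Il15 -0.55 (adjusted p = 0.000438). In the direct comparison of the drugs, Fyn -0.63 (adjusted p = 0.0499), Cxcr3 -0.65 (adjusted p = 0.0409) and Ccl5 -1.06 (adjusted p = 0.0315) were called, each more negative under OTX015.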

How the data were processed

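RNA of 40 samples was measured on 1 Affymetrix 3′ array each, from 500 ng of total RNA per the labels' protocols. The deposited log2 values of 45141 probe sets were made by the authors with RMA, and the submitters' processing notes name the Transcriptome Analysis Console for it, without versions. The sources used here do not say which arrays went through RMA as 1 batch. RMA gives the probe intensities of jointly processed arrays the same distribution before they are summarized, so separate runs could shift whole groups. The summarized values still differed in spread, with array SDs from 1.80 to 2.12. Whether separate runs were made here was not tested. Probe sets were named from GEO's array annotation, with symbols updated by gene number for 16936 of 17097 genes: 28898 named 1 gene, 551 several and 15692 none. Several probe sets named 8 of the 29 genes measured, and the one with the highest mean was used.

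Each comparison was fitted with limma 3.58.1 in R 4.3.3 (lmFit, eBayes, two-sided) on the arrays of its groups, and called at an adjusted p under 0.05. The deposited values were used, except that arrays were quantile normalized in comparisons with OTX015-treated tumours. The fit was also run on simulated data with independent normal noise for each gene. Such data hold no shift of whole arrays, so that run does not test how the fit handles one. The number of arrays limits the precision. Full values are given for genes called in at least 1 comparison or above background in a tumour group, and the rest by range. Of other genes, Ptprc, Hexim1, few cell markers and the 2 leading genes by smallest adjusted p of each pathway list with a call were named. The genes and lists were chosen with earlier results of these data known. Alternatives were other scalings, dropping dim genes, other summaries of probe sets, a variance trend, array weights, 1 fit of all groups, a replicate block and leaving out arrays.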

Additional observations from a re-analysis of the deposited data

Results flagged for a closer look

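Single arrays stood apart from the rest of their group in 10 of 145 sets of values, each set being 1 gene in 1 group, by Dixon's criterion at its 95% level. Chance alone flags about 1 in 20 such sets. Groups of more than 10 arrays, here the 11 control tumours of the OTX015 experiment, were not tested. On untreated cultures, replicate 3 had 4.98 for Klrk1, where the others lay from 4.81 to 4.82. In OTX015-treated tumours, replicate 4 had 4.14 for Klrb1c (others 3.30 to 3.71), replicate 3 had 3.29 for Il2ra (2.78 to 3.04) and replicate 2 had 3.56 for Il2rb (3.85 to 4.12). Replicate 4 of that group is also an array of low spread.

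Among the controls of the guadecitabine experiment, replicate 5 stood apart for Cd8b1 at 3.46 (others 3.23 to 3.26), for Prf1 at 3.66 (4.03 to 4.17) and for Il2ra at 3.23 (2.71 to 2.83). Replicate 2 of these controls had 3.88 for Cd28 (others 3.42 to 3.53). In guadecitabine-treated tumours, replicate 3 had 3.61 for Cd2 (3.08 to 3.20) and 3.32 for Ncr1 (3.07 to 3.12). Apart from Klrk1, all of these levels lie below the array background.

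The effects of OTX015 and guadecitabine on Cd3g in tumours differed by -0.44 (SE 0.12, adjusted p = 0.0319 over all genes, limma).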

How the results depend on the processing

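Arrays leave most of these genes at or below background, so small changes between groups rest on values near the floor of the method, and a change that was not called may still exist. Of the values of single genes, 4677 kept their direction and side of the threshold under an alternative, 86 gained a call and 149 lost one. Another 204 changed sign with no call on either side, and 3 changed sign with a call on 1 side: Ifng (-0.042), Klrb1c (-0.21) and Eomes (-0.17) with OTX015 in tumours on the deposited values, where the median of all genes was -0.21. On those values 25 genes were called with OTX015 in tumours in place of 8, 6 in place of 13 in treated tumours over treated cells, and 17 in place of 1 for the difference between the drugs. Of the 76 receptor genes, 2 were then called higher and 49 lower, 10 and 18, and 1 and 31 in the same order. The counts of calls in this section are given without shares over all genes and describe the processing, not the set. Dropping genes dim on average left few of the set to test and gave 0 calls with OTX015 in tumours, 1 with OTX015 in cells, 2 and 1 in untreated tumours over cells (OTX015 and guadecitabine experiments), 3 in treated tumours over treated cells and 0 for the difference. Without the low-spread arrays 5 were called with OTX015 in tumours and 2 for the difference. The difference also gave 2 with a variance trend, 3 with array weights and 4 at an adjusted p under 0.1, and the cause was not tested. Above background were 7 genes with the 90th percentile and 1 with the highest receptor probe set. Leaving out 1 array gave 5 to 8 calls with OTX015 in tumours, 2 to 4 in cells, 0 to 0 with guadecitabine, 11 to 16 and 4 to 5 in untreated tumours over cells, 10 to 13 in treated tumours over treated cells and 0 to 2 for the difference.

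The replicate numbers showed no clear pairing of the samples. Of 10 number pairs in the OTX015 experiment 5 had deviations correlated above 0.1 (highest 0.524), of 5 in the guadecitabine experiment 0 and of 4 in cells 2. In the same order, 0, 0 and 2 pairs correlated best with their own number. These correlations cannot exclude pairing. With the number as a replicate block the calls were 4 with OTX015 in tumours, 0 with guadecitabine, 2 in cells, 10 and 4 in untreated tumours over cells, 8 in treated tumours over treated cells and 0 for the difference. The labels tie no culture to the tumour of the same number, so the blocked fits of tumours over cells cannot test pairing. Tumours without a culture of their number do not inform the change in those fits.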

Other observations

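When every probe set was tested in place of 1 per gene, 41 probe sets named the 29 T and NK cell genes. In untreated tumours of the OTX015 experiment over untreated cells 20 of the 41 were called, all higher (48.8%, against 43.1% of all probe sets). In OTX015-treated tumours over treated cells 13 were higher and 2 lower (36.6% against 50.1%), with OTX015 in tumours 3 were higher and 5 lower (19.5% against 16.7%), and with OTX015 in cells 2 were higher and 1 lower (7.32% against 29.1%). In untreated tumours of the guadecitabine experiment over untreated cells 5 were called, all higher (12.2% against 38.2%). For the difference between the drugs 1 was called, lower (2.44% against 4.59%). With guadecitabine none of the 41 was called by limma.

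Markers of further cell types differed between tumours and cultures. Of 10 neutrophil and mast cell markers, 8 were called higher in untreated tumours of the OTX015 experiment, with a median change of 0.51, and 2 in those of the guadecitabine experiment, with a median of 0.10. Of 6 dendritic cell markers, 4 and 1 were higher in the same order. With OTX015 in tumours 1 of the 6 dendritic cell markers was higher and 1 of the 10 neutrophil and mast cell markers lower.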
